A study of Mus musculus with 6 samples.

Results

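Retinoic acid metabolism and reception in the embryonic lower jaw were followed through 10 genes of 21827 listed in 6 transcriptomes. The genes were chosen by name. They are the synthesis genes Aldh1a1, Aldh1a2 and Aldh1a3, the breakdown genes Cyp26a1, Cyp26b1 and Cyp26c1, the receptor genes Rara, Rarb and Rarg, and the binding protein gene Crabp1. All 10 were found, each on 1 row. Polyadenylated RNA was sequenced from the distal mandible, dissected from individual mouse embryos at E10.75. By the labels, 3 mutant embryos were Msx1f/f;Msx2f/f;Rosa26mTmG/+;Hand2-Cre and 3 control embryos were Msx1f/+;Msx2f/f;Rosa26mTmG/+;Hand2-Cre, taken as littermates from 3 litters. Both genotypes thus carry the Cre, which is driven by Hand2 regulatory sequence and so acts in Hand2-expressing cells, the reporter, and 2 floxed copies of Msx2. No embryo with intact Msx genes is included. The jaws were dissected by their green fluorescence, and the labels mention no sorting of cells.

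Retinoic acid is made from retinaldehyde by the ALDH1A enzymes and is oxidised and cleared by the CYP26 enzymes, so that tissues with a source border on tissues with a sink. It acts through nuclear receptors of the RAR family, which bind DNA together with RXR partners at direct repeats of a hexamer. Rarb and Cyp26a1 are themselves textbook targets of the receptors. In the pharyngeal arches, too much or too little retinoic acid is known to disturb the neural crest mesenchyme that builds the jaw, and Crabp1, a cytoplasmic retinoic acid binding protein, is widely used to mark crest-derived mesenchyme.

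The promoters of the Rarb and Cyp26a1 genes are shown because they carry the hexamer repeat that links the receptors to their own feedback genes. The searched hexamers were AGGTCA along with AGTTCA, plus the forms GGGTCA along with GGTTCA, on both strands and with overlaps counted, and pairs of them on 1 strand separated by 5, 2 or 1 bases. The windows were RefSeq promoters of GRCm38.p6, from 250 bases before to 50 bases after a transcript start. Of the 10 genes, 9 had windows there, 14 in all. Below are the 250 bases before the start, written 5′ to 3′ in the direction of transcription, with each hexamer match in capitals. Rarb lies at chr14:16575477-16575726 on the minus strand and Cyp26a1 at chr19:37697558-37697807 on the plus strand.
Rarb: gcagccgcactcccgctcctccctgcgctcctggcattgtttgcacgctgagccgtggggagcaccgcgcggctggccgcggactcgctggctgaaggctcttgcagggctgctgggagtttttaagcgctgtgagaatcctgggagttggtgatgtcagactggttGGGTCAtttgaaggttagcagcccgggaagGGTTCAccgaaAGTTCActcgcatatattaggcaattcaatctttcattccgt
Cyp26a1: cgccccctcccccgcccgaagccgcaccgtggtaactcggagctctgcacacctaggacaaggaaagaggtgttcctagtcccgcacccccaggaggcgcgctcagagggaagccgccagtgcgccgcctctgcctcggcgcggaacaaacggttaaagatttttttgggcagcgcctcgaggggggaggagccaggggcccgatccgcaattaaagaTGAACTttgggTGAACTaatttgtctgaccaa

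Each of these windows held 1 pair of hexamers 5 bases apart. In Rarb the pair began 53 bases before the start, on the strand of the gene.
Rarb pair: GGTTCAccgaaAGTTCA
In Cyp26a1 it began 32 bases before the start and reads as the repeat on the opposite strand.
Cyp26a1 pair: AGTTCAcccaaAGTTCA
Both pairs end in AGTTCA. A pair at this spacing was in 2 of the 14 windows of the 10 genes and in 0.0974% of 32851 windows of all genes, so it is rare among promoters. Single hexamers carry little information, as 6 of the 14 windows and 43.7% of all windows held at least 1. No window of the 10 genes held a pair 2 or 1 bases apart, spacings found in 0.268% and 0.222% of all windows. These matches describe letters in a window and not occupancy by a receptor.

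Markers of the labelled tissue were present. All 8 markers of distal arch mesenchyme reached 1 TPM (a transcript level scaled for length and library total) in every library, with Hand2 at 210.0 to 261 TPM. All 8 epithelial and all 5 endothelial markers reached it too, with summed levels of 112 to 129 TPM and 67.4 to 80.7 TPM. Defining markers of glia (Sox10), muscle (Myod1, Myog) and neurons (Elavl3) stayed below 1 TPM in all 6. In such bulk RNA, fewer cells of a type and less RNA per cell cannot be told apart. Red blood cell markers summed to 20835 TPM in the mutant-labelled library of litter 1, and between 6405 and 9055 TPM in the other 5. Fitted without that library, limma called 0 of the 7 tested members and 0 of 21 tested genes of the pathway lists described below. Of all 12152 tested genes it called 1 (lower). The full fit also called 0 members and 0 list genes, so these calls cannot show what that library contributes. At an unadjusted p under 0.05 (limma), 1 of the 7 passed without that library and 0 with it. Of all tested genes, 202 higher and 447 lower passed without it. Msx1, the gene whose floxed copies differ between the labels, was at 1.90, 78.8 and 73.3 TPM in the mutant-labelled libraries of litters 1, 2 and 3, against 84.1, 2.61 and 1.99 TPM in those labelled control. Msx1 thus goes against the labels in litters 2 and 3, and the labels are used below as deposited ("the library labelled"). Littermates are also set side by side as the library with Msx1 under 10 TPM and the library with Msx1 over 50 TPM, that is, labelled mutant against labelled control in litter 1 and labelled control against labelled mutant in litters 2 and 3. Because Msx1 is itself a measured value, these pairs are given as values, with no average and no test.

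The 10 genes covered a wide span of levels, in an order that was much the same in every library. Crabp1 was the most abundant, at 343 to 457 TPM, among the top 1.11% of listed genes by mean level. Rarg at 54.8 to 68.3 TPM and Rara at 36.0 to 43.9 TPM followed. Their ranges did not overlap with each other or with the gene on either side. Below them came Cyp26b1, at 7.07 to 10.6 TPM, Aldh1a2, at 4.36 to 9.06 TPM, Aldh1a3, at 2.51 to 4.68 TPM, and Rarb, at 1.37 to 3.50 TPM. Neighbours among these overlapped in range, although Cyp26b1 exceeded Aldh1a2, and Aldh1a2 exceeded Aldh1a3, in 6 of 6 libraries. Cyp26c1, Cyp26a1 and Aldh1a1 stayed below 1 TPM in every library, at no more than 0.857, 0.617 and 0.445 TPM. Cyp26c1 was above Cyp26a1 in only 3 of 6 libraries, so their order is not settled.

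**Figure D1:**
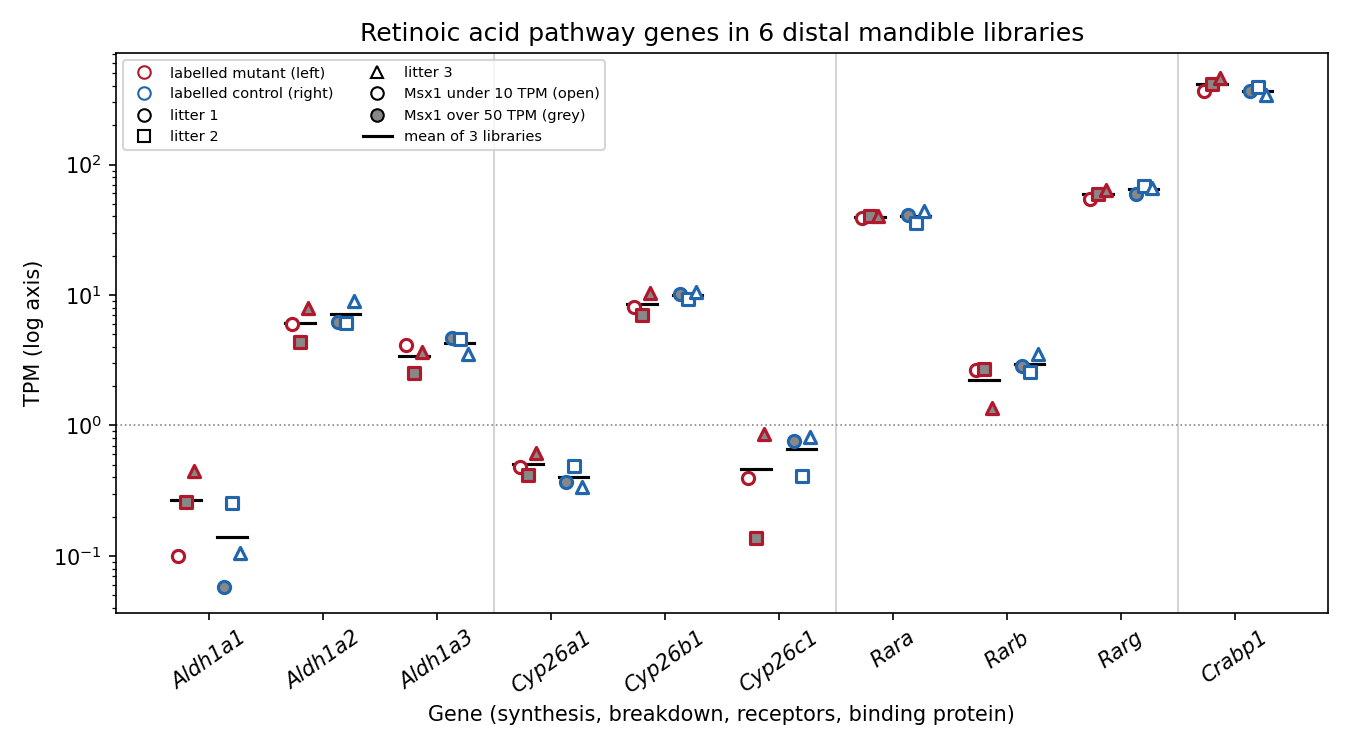
Level of each gene in TPM on a log axis, for the 3 mutant-labelled libraries (left, red outline) and the 3 labelled control (right, blue outline), with litters as symbols, Msx1 under 10 TPM open and over 50 TPM grey, and bars at the mean of 3 libraries. The labelled groups overlap for every gene, and Cyp26a1, Cyp26c1 and Aldh1a1 lie below the dotted line at 1 TPM.

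Within each enzyme group 1 gene carried most of the transcript. Cyp26b1, the CYP26 enzyme gene known for mesenchymal expression in limb and craniofacial tissue, made up 87.5% to 92.7% of the summed CYP26 level over the 6 libraries. Aldh1a2, which provides most retinoic acid of the early embryo, made up 55.6% to 71.3% of the summed ALDH1A level, and Aldh1a3, known from nasal and eye fields, 27.9% to 42.6%. Summed breakdown and synthesis transcripts were about equal, with a ratio of 0.880 to 1.07. Transcript levels do not give enzyme activity.

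**Figure D2:**
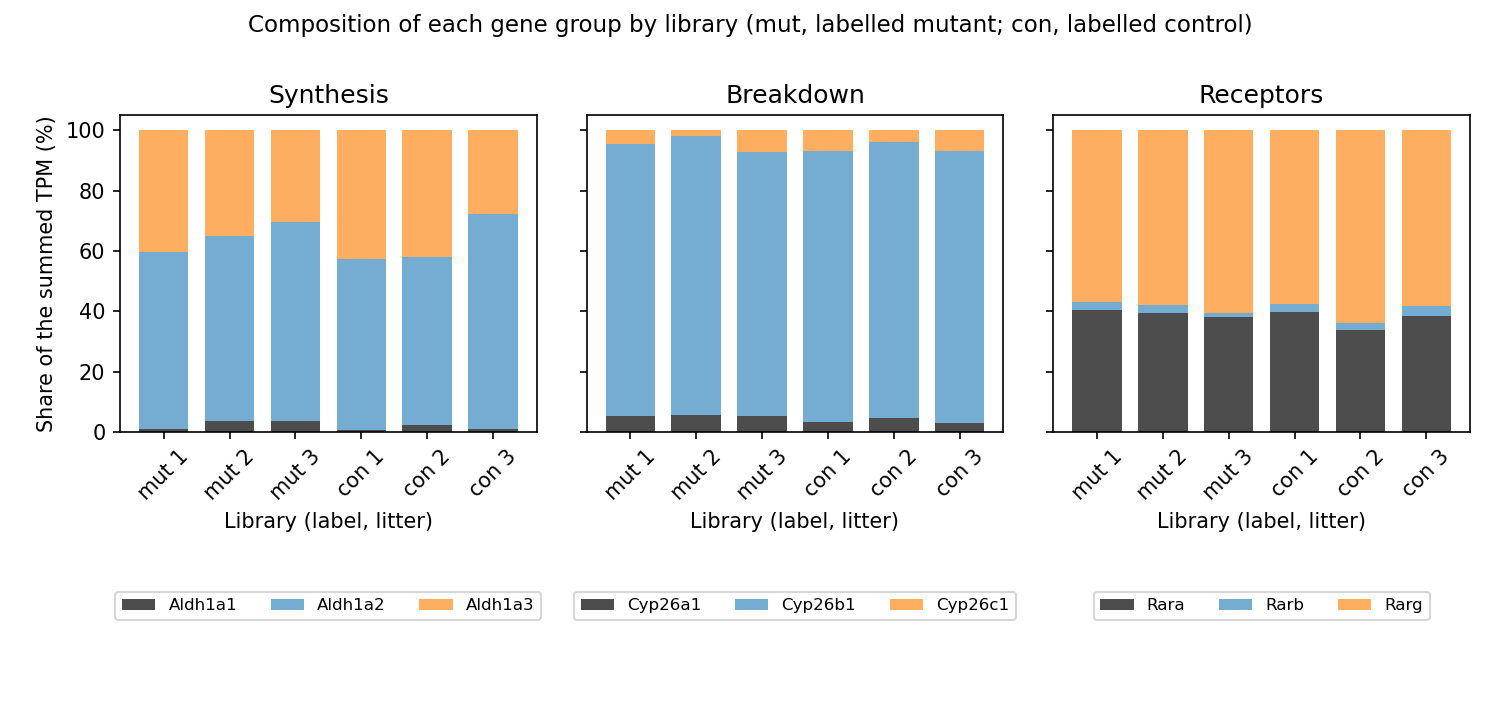
Share of each gene in the summed TPM of its group, in percent, per library, with the 3 mutant-labelled libraries left of the 3 labelled control. Aldh1a2, Cyp26b1 and Rarg are the largest part of their groups in every library.

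Synthesis genes did not separate the labels. Aldh1a2 (chromosome 9, 71215789 to 71296243, GRCm38) was at 5.97, 4.36 and 7.90 TPM in the mutant-labelled libraries of litters 1, 2 and 3, against 6.25, 6.10 and 9.06 TPM in those labelled control. Both litter 3 libraries were the highest, and the groups overlapped. The difference in log2(TPM + 1) between the labels, mutant minus control, was -0.21 ± 0.22 (SE, n = 3 each; limma adjusted p = 0.838), where limma is a moderated linear model fitted to all 12152 genes with at least 1 TPM in 3 libraries. Aldh1a3 (chromosome 7, 66390890 to 66427517) was at 4.13, 2.51 and 3.63 TPM in the mutant-labelled libraries, against 4.68, 4.62 and 3.55 TPM in those labelled control, so that a single library, labelled mutant of litter 2, stood low. Its difference was -0.27 ± 0.19 (SE; limma adjusted p = 0.763). Aldh1a1 (chromosome 19, 20492715 to 20643465) was at 0.101, 0.261 and 0.445 TPM in the mutant-labelled libraries and 0.0575, 0.255 and 0.106 TPM in those labelled control, and was too low for the test. Its close mouse paralog Aldh1a7, named after its values were seen, lies 49.5 kb away and was at 1.87 to 2.84 TPM. How reads shared by these copies were divided is not given, so the split between them is uncertain.

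Breakdown genes did not separate the labels either. Cyp26b1 (chromosome 6, 84571414 to 84593908) was at 8.09, 7.07 and 10.3 TPM in the mutant-labelled libraries of litters 1, 2 and 3, against 10.2, 9.36 and 10.6 TPM in those labelled control. The control values lay close together, and the mutant value of litter 3 fell among them. The log2 difference was -0.23 ± 0.15 (SE, n = 3 each; limma adjusted p = 0.752). Cyp26c1 and Cyp26a1 are neighbours on chromosome 19 (37685581 to 37693398 and 37697798 to 37701536), 4.40 kb apart. Cyp26a1, the CYP26 gene that retinoic acid is best known to induce, was at 0.485, 0.420 and 0.617 TPM in the mutant-labelled libraries, against 0.372, 0.488 and 0.339 TPM in those labelled control. Cyp26c1 was at 0.399, 0.136 and 0.857 TPM in the mutant-labelled libraries, against 0.763, 0.407 and 0.811 TPM in those labelled control. At these levels neither was tested.

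Receptor transcripts were mostly Rarg and Rara in every library. Rarg made up 56.9% to 63.9% of the summed receptor level, Rara 33.7% to 40.3% and Rarb 1.30% to 3.08%, and Rarg exceeded Rara 1.41-fold to 1.90-fold. Rarg (chromosome 15, 102234938 to 102257517), the receptor gene known for expression in mesenchyme and precartilage, was at 54.8, 59.0 and 63.9 TPM in the mutant-labelled libraries, against 59.7, 68.3 and 66.3 TPM in those labelled control. The log2 difference was -0.13 ± 0.09 (SE, n = 3 each; limma adjusted p = 0.763). Rara (chromosome 11, 98927818 to 98974942), the broadly expressed receptor gene, was at 38.9, 40.2 and 40.0 TPM in the mutant-labelled libraries, within the 41.3, 36.0 and 43.9 TPM of those labelled control. It was the steadiest of the 10 genes, with a coefficient of variation of 6.55% over the 6 libraries, and its difference was -0.02 ± 0.09 (SE; limma adjusted p = 0.966), which became 0.05 with scaling by median-of-ratios size factors.

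Rarb, whose promoter repeat is printed above, was low and uneven. It lies on chromosome 14 (16430839 to 16819156, minus strand) and was at 2.64, 2.70 and 1.37 TPM in the mutant-labelled libraries of litters 1, 2 and 3, against 2.85, 2.56 and 3.50 TPM in those labelled control. Of these values 4 lay within 2.56 to 2.85 TPM, and both extremes came from litter 3. The log2 difference was -0.32 ± 0.22 (SE, n = 3 each; limma adjusted p = 0.762). The Rarb gene shares 4.62 kb at its 3′ end with the oppositely oriented Top2b, at 122 to 149 TPM. Whether the counting used strand is not given in the sources used here, so reads from the shared stretch cannot be assigned with certainty.

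Crabp1 (chromosome 9, 54764748 to 54773110) was the 1 tested gene of the 7 with a positive difference, joined by Rara with median-of-ratios scaling. It was at 365.3, 418 and 457 TPM in the mutant-labelled libraries of litters 1, 2 and 3, against 365.8, 390.0 and 343 TPM in those labelled control. The litter 1 littermates were nearly equal and the widest gap was in litter 3. The log2 difference was 0.17 ± 0.10 (SE, n = 3 each; limma adjusted p = 0.743).

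Over the whole comparison of the labels, 0 of the 7 tested genes were called by limma at an adjusted p of 0.05. The background is the same, since 0 of 12152 genes (0%) were called higher and 0 (0%) lower. Msx1 itself was not called between the labels (log2 difference 1.41 ± 1.95, SE, n = 3 each; limma adjusted p = 0.887), so this fit compares the labels and gives no measure of lower Msx1. At an unadjusted p under 0.05 limma had 0 of the 7 and 817 of all genes (6.72%), of which 231 were positive and 586 negative, a split that became 410 and 305 with median-of-ratios scaling. No gene of the 7 had labelled groups whose ranges did not overlap, against 13.1% of all tested genes. The median difference of the 7 was -0.21, with 6 of 7 negative, beside -0.06 and 7947 of 12152 negative over all tested genes. With median-of-ratios scaling 5 of 7 were negative, beside 6019 of all 12152 tested genes. A p that misses the threshold does not show equal levels, and the 95% intervals (limma) of the differences between the labels were -0.24 to 0.20 for Rara, -0.34 to 0.08 for Rarg, -0.06 to 0.40 for Crabp1 and -0.82 to 0.19 for Rarb.

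Between littermates with Msx1 under 10 and over 50 TPM, most of the 10 genes changed direction from litter to litter. Aldh1a2 was at 5.97, 6.10 and 9.06 TPM in the lower-Msx1 libraries of litters 1, 2 and 3, against 6.25, 4.36 and 7.90 TPM in the higher-Msx1 libraries. Aldh1a3 was at 4.13, 4.62 and 3.55 TPM in the lower-Msx1 libraries, against 4.68, 2.51 and 3.63 TPM in the higher-Msx1 libraries. In 4 of the 7 tested members (Aldh1a2, Aldh1a3, Cyp26b1 and Rarg) the lower-Msx1 library was below its littermate in litter 1 and above it in litter 2, as in 32.6% of all tested genes. With median-of-ratios scaling this held for 3 of 7, without Aldh1a2 (0.04 in litter 1), beside 24.4% of all tested genes. This pattern was singled out after the values were seen and is a description. The ratios in litter 2 were 1.40 for Aldh1a2, 1.84 for Aldh1a3 and 1.32 for Cyp26b1. Rarg was at ratios of 0.919 in litter 1, 1.16 in litter 2 and 1.04 in litter 3, the last of which turned negative with that scaling (log2 difference -0.04).

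Rarb gave the widest gap between littermates among the tested members. In litter 3 the lower-Msx1 library had 3.50 TPM, against 1.37 TPM in the higher-Msx1 library, a ratio of 2.55. In litters 1 and 2 the ratios were 0.925 and 0.948, so the gap was seen in litter 3 alone. The difference in log2(TPM + 1) of Rarb in litter 3 was 0.92, beside a median absolute difference of 0.21 over all 12152 tested genes in that litter. That median covers genes of all levels, while Rarb is low. Its gap was not set against genes of like level.

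Crabp1 was the only tested member in which the lower-Msx1 library had the lower TPM in 3 of 3 litters. The ratios were 0.999, 0.933 and 0.751, and with median-of-ratios scaling the direction in litter 1 flipped, to a log2 difference of 0.11. Over all tested genes, 22.7% had 1 direction in all 3 litters, and in 11.9% of all tested genes the lower-Msx1 library was lower each time, so 1 of 7 is near the background. With the same scaling Aldh1a2 instead was higher in the lower-Msx1 library in 3 of 3 litters, by 0.04, 0.40 and 0.09.

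**Figure D3:**
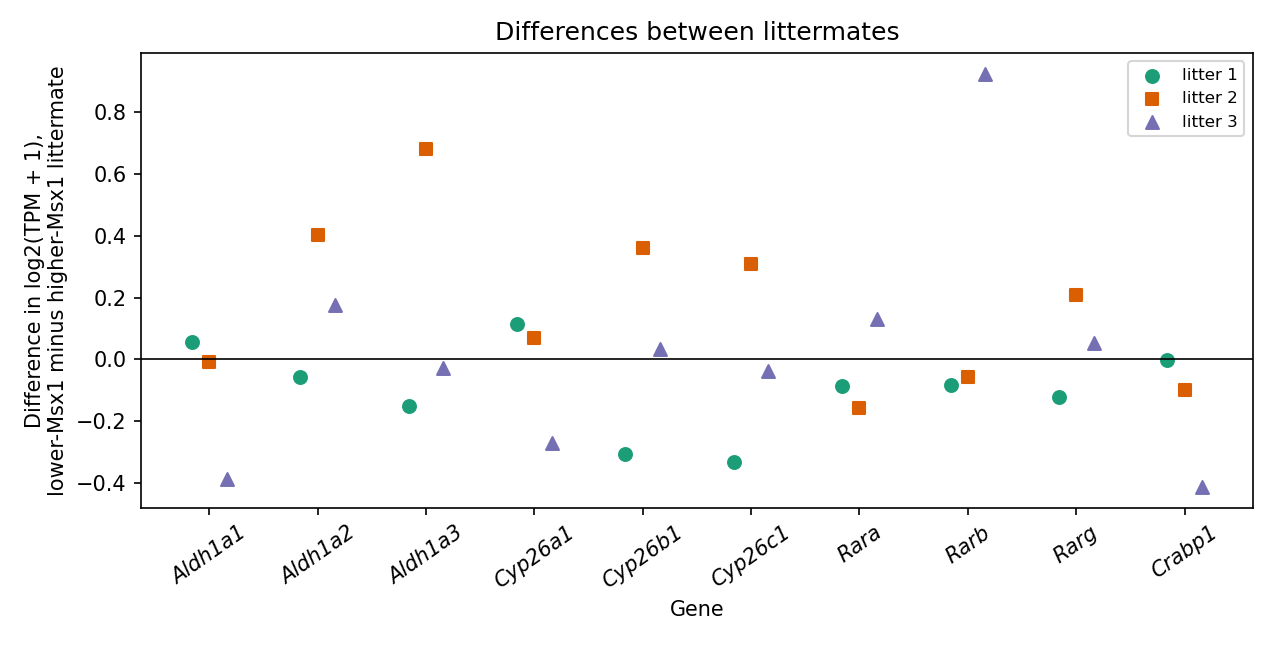
Difference in log2(TPM + 1) between littermates, lower-Msx1 library minus higher-Msx1 library, with 1 symbol per litter. Points of a gene lie on both sides of 0 for 9 of the 10 genes, Crabp1 being the exception (Aldh1a2 with median-of-ratios scaling), and Rarb of litter 3 is the highest point at 0.92.

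The authors' deposited table holds a replicated test of mutant against control, without stating its grouping or direction. Msx1 is negative in it (log2 fold change of -5.19), so a positive value is read as a higher level where Msx1 was lower. Of the genes that it adjusted for, 0.0961% were called at 0.05. Among the 10 members, the authors' deposited table called 0, and the adjusted p was 1.00 for each. At an unadjusted p under 0.05 the table had 0 of the 10 members and 1.85% of all genes. Positive members numbered 6 and negative ones 4 in the authors' deposited table, beside 7388 positive and 7184 negative of all genes that it adjusted for. Their median log2 fold change was 0.04, beside 0.003 over all genes that the authors' deposited table adjusted for.

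By role, the authors' deposited table gave log2 fold changes of 0.20 ± 0.33 for Aldh1a2 and 0.23 ± 0.53 for Aldh1a3 (here and below, ± the table's standard error). Cyp26b1 was at 0.03 ± 0.23 in the authors' deposited table. The receptor genes Rara, Rarg and Rarb were at -0.04 ± 0.16, 0.05 ± 0.17 and 0.38 ± 0.48 in the authors' deposited table, and Crabp1 at -0.17 ± 0.14, the smallest p of the 10 (unadjusted p = 0.237).

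How large a change these data could have hidden depends on the gene. Intervals of 95%, taken as 1.96 standard errors of the authors' deposited table, lay within 1 log2 unit either way for 5 of the 10 genes. For Rara the interval ran from -0.34 to 0.27, for Rarg from -0.28 to 0.37, and for Crabp1 from -0.45 to 0.11, as computed from the authors' deposited table. Those of Cyp26b1 (-0.42 to 0.49) and Aldh1a2 (-0.44 to 0.84) in the authors' deposited table were also inside that limit. The interval of Rarb reached 1.32, or 2.50-fold, and that of Aldh1a3 reached 1.26. Cyp26a1, Cyp26c1 and Aldh1a1 had base means (average normalised counts) of 5.35, 4.01 and 3.88 in the authors' deposited table. Their intervals went beyond 2 log2 units on both sides, so that even a several-fold change could not be seen at such counts.

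**Figure D4:**
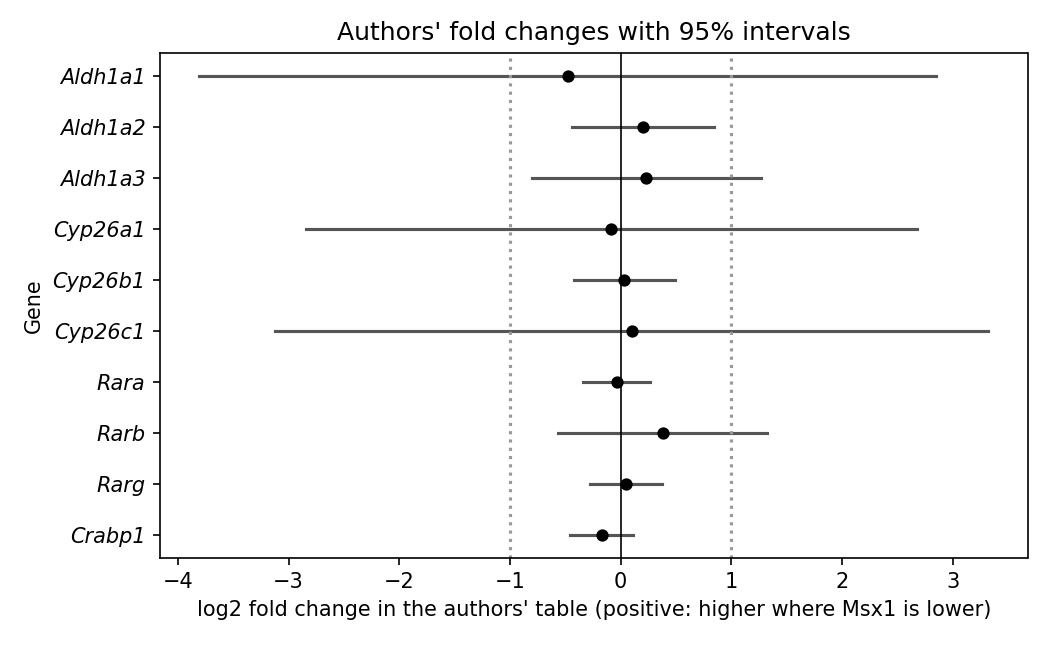
Log2 fold change (dots) and 95% interval (lines) of each gene in the authors' deposited table, where positive means higher where Msx1 is lower, with dotted lines at 1 log2 unit. Every interval includes 0; those of Rara, Rarg and Crabp1 are the narrowest and those of Aldh1a1, Cyp26c1 and Cyp26a1 the widest.

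The rest of the pathway was followed through 3 lists. In retinoid supply (9 genes for carriers, uptake and the retinol step), 0 were called in either direction by limma (8 tested) or in the authors' deposited table (9 tested), where 7 were positive and 2 negative (median log2 fold change 0.06). All genes that the authors' table adjusted for split into 7388 positive and 7184 negative. Between the labels, mutant minus control, 3 of the 8 tested were positive and 5 negative, which became 6 and 2 with median-of-ratios scaling. Over all 12152 tested genes, 4205 were positive and 7947 negative, and 6133 and 6019 with that scaling. Crabp2, a binding protein that delivers retinoic acid to the nucleus, was at 260 to 312 TPM and Fabp5, a fatty acid binding protein, at 131 to 161 TPM. With Crabp1, these carriers far exceeded the receptor genes. Dhrs3, a retinaldehyde reductase gene induced by retinoic acid, had the smallest p of the list in the authors' deposited table (0.55 ± 0.49, unadjusted p = 0.267), and the retinol transporter gene Stra6 followed at 0.16 ± 0.24. Dhrs3 was at 7.44, 3.74 and 7.40 TPM in the lower-Msx1 libraries of litters 1, 2 and 3, against 4.23, 4.06 and 3.75 TPM in the higher-Msx1 libraries.

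Among 9 receptor partners and coregulators, 0 were called by limma (8 tested) or in the authors' deposited table (8 adjusted), where 8 were positive and 1 negative (median 0.08). All genes that the authors' table adjusted for split into 7388 positive and 7184 negative. Between the labels, 0 of the 8 tested were positive and 8 negative (1 and 7 with median-of-ratios scaling). Negative genes were 7947 of all 12152 tested, and 6019 with that scaling. The labelled groups did not overlap for 4 of these 8, all lower in the libraries labelled mutant, beside 13.1% of all tested genes. With that scaling this was 2 of 8, beside 11.1% of all tested genes. The same count was 2 of 8 in retinoid supply and 1 of 5 in the responsive genes (1 of 8 and 1 of 5 with the scaling). The corepressor gene Ncor1 was at 119 to 136 TPM. Rxra, the main RXR partner gene of the receptors, had the smallest p of the list in the authors' deposited table (0.29 ± 0.17, unadjusted p = 0.0842). Rxra was at 25.4, 24.8 and 40.4 TPM in the lower-Msx1 libraries of litters 1, 2 and 3, against 21.5, 24.9 and 26.0 TPM in the higher-Msx1 libraries, so that 1 library, labelled control of litter 3, stood apart.

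Of 8 retinoic-acid-responsive genes, 0 of 5 tested were called by limma and 0 of 5 adjusted ones in the authors' deposited table, where 7 of the 8 were positive and 1 negative. All genes that the authors' table adjusted for split into 7388 positive and 7184 negative. Between the labels, 0 of the 5 tested were positive and 5 negative (1 and 4 with median-of-ratios scaling). Negative genes were 7947 of all 12152 tested, and 6019 with that scaling. Hoxb1 and Cdx1, classical early targets in the trunk and hindbrain, did not exceed 0.0763 and 0.203 TPM. Meis2 was at 91.6 to 134 TPM. Nr2f2, an orphan nuclear receptor gene, was the 1 gene of the list with an unadjusted p under 0.05 in the authors' deposited table (0.65 ± 0.19; its adjusted p was 0.369). It had littermate ratios of 1.76, 1.01 and 2.16, lower-Msx1 over higher-Msx1. Tgm2, a transglutaminase gene, was at 0.49 ± 0.52 in the authors' deposited table.

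The library labelled control of litter 3, with Msx1 at 1.99 TPM, held the highest value of 4 of the 7 tested members (Aldh1a2, Cyp26b1, Rara and Rarb) and of 6 of the 8 tested receptor partners and coregulators. It was the highest for 3 of the 5 tested responsive genes and for 1 of the 8 tested genes of retinoid supply. It also held the lowest Crabp1 value. This library was the highest for 30.0% of all tested genes. With median-of-ratios scaling the counts were 3 of 7 members, 5 of 8 partners and coregulators, 2 of 5 responsive genes and 1 of 8 supply genes, beside 22.2% of all tested genes. This count was chosen after the values were seen and is given as a description. The part of that library in the littermate values and in the authors' deposited table was not tested. Left out of the fit between the labels, it gave 0 members called, as did the full fit, so those calls cannot show its part.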

How the data were processed

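The deposited TPM, 1 value per gene and library, were made by the authors. The submitters' processing notes name Salmon 1.5.2, DESeq2 and mm10, without roles. The sources used here do not give the annotation release, the joining of transcripts or any filter. The authors' deposited table holds, per the file headers, a base mean (a signal of normalised counts), a log2 fold change with standard error, a Wald score (stat), and p-values with adjusted p-values. Genes were matched by symbol and ID. Coordinates come from GENCODE M21 (GRCm38, the same build as mm10).

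Listed TPM summed to 716208 to 735601 per library. TPM keep no depth, so the spread between embryos is the measure of precision, and counting intervals are not given. The base means, which are averages of normalised counts, sum to 9735035 over the listed genes. The depth of each library is not given.

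The labelled groups were compared with limma 3.58.1 in R 4.3.3 (variance trend, robust moderation) on log2(TPM + 1), a scale that understates changes of low genes, over genes reaching 1 TPM in 3 or more libraries, with Benjamini-Hochberg adjustment over all genes tested and a threshold of 0.05. The script was tested on simulated data. Each library is 1 embryo. An exact permutation test of 3 against 3 cannot go below p = 0.1, so none was used. The litters pair the embryos by the design text, and deviations of littermates from the label means correlated at -0.05, -0.03 and -0.03 over genes. By the same measure, embryos of different label and different litter correlated at -0.02 to 0.05. A litter block, pseudocount 0.1, other filters, scaling, another variance model and each library left out were tried. All 10 members and, in each list, the 2 most abundant genes and the 2 with the smallest p in the authors' table are named, except that some list genes are not reported here. The members and lists were chosen with earlier results of these data known.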

Additional observations from a re-analysis of the deposited data

How the results depend on the processing

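The 7 tested members were refitted under 12 other settings, which gave 82 values, as the 5 TPM mean kept 5 of them. None passed the threshold (smallest limma adjusted p 0.510), and 2 had the opposite sign, both of Rara (0.050 with median-of-ratios scaling, 0.041 without control replicate 3). With 1 library left out at a time, the log2 difference ran from -0.39 to -0.03 for Aldh1a2, -0.38 to -0.11 for Aldh1a3, -0.37 to -0.12 for Cyp26b1, -0.10 to 0.04 for Rara, -0.43 to -0.11 for Rarb, -0.18 to -0.07 for Rarg and 0.09 to 0.26 for Crabp1. The replicate block (litter as paired term) called 0 members, 0 genes higher and 0 lower, and changed no call. Over all genes, leaving out each library called 0 to 1 gene higher (the 1 without control replicate 1) and 0 to 1 lower (the 1 without mutant replicate 1). The authors' deposited table had 14 calls at an adjusted p of 0.05 and 7 at 0.01, and 0 members at either. With median-of-ratios scaling, 1 tested member still had 1 direction in all 3 litters, but it was Aldh1a2 and not Crabp1. Whether depth limits the genes under 1 TPM was not tested, as the TPM do not record it.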
